A study of Mus musculus with 5 samples.

Results

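The mitochondrial protein import genes are the 34 genes, among 21259 cellular genes in the deposited table, whose symbol starts with Tomm or Timm and a digit (10 and 15 genes) or is Pam16, Dnajc19, Grpel1, Grpel2, Hspa9, Pmpca, Pmpcb, Chchd4 or Gfer (9 genes). The symbols alone define the set, but the family was chosen by looking at the same comparison that is described here. Its differences between the groups are therefore a description and are not tested as evidence about the family. All RNA came from NIH3T3 cells, a mouse fibroblast cell line, with a stably expressed dCas9 CRISPR activator. This is a Cas9 made unable to cut DNA, which raises transcription where its guide takes it. Both groups carry this activator, and the labels name no other line or clone. The control group (2 libraries) received plasmids with a scramble single guide RNA (sgRNA). The other group (3 libraries) received plasmids with sgRNA against the promoter of LINE-1, a family of retrotransposons, and RNA was taken 48 h after transfection in all 5. The labels do not say whether the libraries of a group came from separate cultures or transfections, so the errors below cover only variation between these libraries. Each SE is moderated, with the gene's own spread drawn toward that of tested genes of like level.

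Nearly all mitochondrial proteins are made in the cytosol and are carried into the organelle through a chain of protein machines. The translocase of the outer membrane (TOM) is the common entry gate. Behind it the TIM23 complex and its motor, driven by the matrix chaperone Hspa9, pull proteins with a cleavable presequence into the matrix. There the mitochondrial processing peptidase removes that signal. The TIM22 complex inserts carrier proteins into the inner membrane, small TIM chaperones ferry hydrophobic proteins across the intermembrane space, and the disulfide relay of Chchd4 and Gfer traps small cysteine-rich proteins there. When import stalls, mammalian cells are known to switch on a stress programme through the transcription factors Atf4, Atf5 and Ddit3.

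Promoter sequences are shown for the pore gene Tomm40, its partners Tomm22 and Tomm20, and the motor gene Grpel1. With the values as deposited, Tomm40, Tomm22 and Tomm20 were lower with LINE-1 sgRNA and Grpel1 was higher. Tomm22 and Tomm20 did not pass the threshold when libraries were scaled to the table total. Each is the 250 bases before the RefSeq start on the build GRCm38.p6, written 5′ to 3′ on the strand of the gene. Tomm40 lies at chr7:19715430-19715679 on the minus strand, Tomm22 at chr15:79670618-79670867 on the plus strand, Tomm20 at chr8:126945922-126946171 on the minus strand and Grpel1 at chr5:36464935-36465184 on the plus strand. Capitals mark the box CCAAT in Tomm40, the ETS letters CCGGAAG in Tomm22 and the NRF1 letters GCGCANGCG in Tomm20, and in Grpel1 both CCAAT and CCGGAAG, on either strand.
Tomm40: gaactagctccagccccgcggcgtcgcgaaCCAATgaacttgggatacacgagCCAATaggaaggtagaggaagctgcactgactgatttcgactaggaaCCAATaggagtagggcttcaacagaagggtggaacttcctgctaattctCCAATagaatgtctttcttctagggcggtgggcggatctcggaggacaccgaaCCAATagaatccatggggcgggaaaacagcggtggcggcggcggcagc
Tomm22: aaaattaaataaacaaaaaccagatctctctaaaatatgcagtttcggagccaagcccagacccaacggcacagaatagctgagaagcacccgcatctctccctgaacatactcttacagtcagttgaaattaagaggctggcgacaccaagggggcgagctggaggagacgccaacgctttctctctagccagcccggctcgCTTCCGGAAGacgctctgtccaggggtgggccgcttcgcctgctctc
Tomm20: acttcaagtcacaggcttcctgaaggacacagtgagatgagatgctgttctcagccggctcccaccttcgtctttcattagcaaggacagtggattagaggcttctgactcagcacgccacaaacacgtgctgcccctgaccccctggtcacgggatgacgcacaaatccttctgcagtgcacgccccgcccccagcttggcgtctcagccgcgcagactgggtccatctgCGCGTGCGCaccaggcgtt
Grpel1: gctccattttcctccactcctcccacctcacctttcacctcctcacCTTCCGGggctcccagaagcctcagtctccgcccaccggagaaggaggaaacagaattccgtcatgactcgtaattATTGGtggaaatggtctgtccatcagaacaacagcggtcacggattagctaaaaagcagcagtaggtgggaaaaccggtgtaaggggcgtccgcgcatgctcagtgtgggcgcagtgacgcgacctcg
The Tomm40 window holds 5 CCAAT boxes, all in the direction of the gene, with first bases at -220, -197, -150, -101 and -48 from the start. At least 5 of them occur in 70 of the 32851 promoters of the RefSeq table (0.213%) and in 47 of the 14228 promoters of the tested genes (0.330%). The cut-off of 5 is the count of the Tomm40 window itself, so these shares describe that window and test nothing. In Tomm22 the ETS letters occur at -47 on the other strand and at -44 on the same strand, and these matches overlap. Tomm20 has the NRF1 letters at -19 on the other strand. Grpel1 has ETS letters at -204 and a CCAAT box at -128, both on the other strand. The GENCODE annotation starts Grpel1 earlier than RefSeq, at 36464998, inside this window. By that start the ETS letters lie upstream and the CCAAT box lies within the gene.

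The promoter table holds 31 promoters of 29 import genes, and has no entry for Grpel2, Hspa9, Timm21, Tomm40l or Tomm7. NRF1 and the ETS factor GABP are known activators of genes for mitochondrial proteins. The ETS letters CCGGAAG were found in 12 of the 31 promoters (38.7%), against 6.91% of all promoters and 12.2% of those of tested genes. They occur in Grpel1, Pmpca, Pmpcb, Timm10, Timm23, Timm29, Timm8a2, Timm8b, Tomm22, Tomm34 and Tomm70a. Of these, Grpel1 was called higher and Tomm22 and Tomm70a lower with the values as deposited, and the others were not called. With libraries scaled to the table total, Tomm22 and Tomm70a were not called either, and Timm8b was higher. Timm8a2 was too scarce to test. The NRF1 letters were found in 4 promoters (12.9%, against 5.16% of all and 9.66% of tested genes), those of Chchd4, Pam16, Timm13 and Tomm20. CCAAT was found in 9 (29.0%, against 33.8% and 35.1%). The letters TGATGNAA, the core of the composite element that ATF4 binds, were found in none, against 3.45% and 2.09%. All letters were searched on both strands in the same 250 bases, and a match describes the sequence and shows no binding.

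The values are the authors' normalized reads, and whole reads could be recovered from them. The recovered reads per library ranged from 30681384 to 36726985 in the scramble group and from 35996907 to 45596490 in the other group. As a check of the labels, the LINE-1 subfamily L1MdTf_I had 329 and 313 normalized reads in the scramble libraries and 655, 717 and 643 in the LINE-1 sgRNA libraries. Of 14337 genes with a mean of at least 10 normalized reads, 2606 were higher and 3637 lower with LINE-1 sgRNA in limma (Benjamini-Hochberg adjusted p under 0.05), which is 18.2% and 25.4%. The sum of the table was smaller in all 3 LINE-1 sgRNA libraries, so each call is also given with libraries scaled to that total, which moved the median change of all genes by 0.083 on the log2 scale, from -0.06 to 0.02. With table totals 22.9% of genes were higher and 14.9% lower, and with edgeR's TMM factors 21.3% and 17.7%. Fibroblast markers were high in all libraries, and 8 of 10 were lower with LINE-1 sgRNA, with a summed level of 763553 to 819192 in scramble and 534840 to 560778 in LINE-1 sgRNA libraries. The markers of brown adipocytes and muscle, cell types rich in mitochondria, were scarce. Of 4 tested out of 10, 3 were higher (Tnnt2, Fabp4 and Myh6), with sums of 279 to 321 and 768 to 862, while Ucp1, the defining gene of brown fat, stayed between 4.28 and 7.72 in all 5 libraries. Leukocyte markers had 4 of 9 tested genes higher (sums of 767 to 844 and 901 to 974) and endothelial markers 2 of 5 (116 to 120 and 154 to 198). Epithelial markers had 0 of 4 tested genes past the threshold in limma, edgeR and DESeq2, and 0 at an unadjusted p under 0.05 (sums of 92.7 to 118 and 98.8 to 124), and no marker of any list was at 0 in all libraries. The part of these other cell types in the import gene values was not tested.

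Among the 33 import genes that could be tested, 9 were lower (background 25.4%) and 1 was higher (background 18.2%) in the LINE-1 sgRNA libraries. The lower genes were Tomm5, Tomm6, Tomm20, Tomm22, Tomm40, Tomm40l, Tomm70a, Timm9 and Timm17b, and the higher gene was Grpel1. With table totals 2 were lower, Tomm5 and Tomm40 (background 14.9%), and 5 were higher, Grpel1, Grpel2, Hspa9, Chchd4 and Timm8b (background 22.9%). With TMM factors 4 were lower, Tomm5, Tomm6, Tomm20 and Tomm40 (background 17.7%), and 2 were higher, Grpel1 and Grpel2 (background 21.3%). Tomm5, Tomm40 and Grpel1 were called under all of these scalings, and 19 members under none of them. Tomm5 was only just inside the threshold with table totals. The changes ran from -0.55 to 0.27 on the log2 scale with a median of -0.11, against -0.06 for all tested genes. With table totals the medians were -0.03 and 0.02. Among the members called as deposited, no change was larger in size than the -0.33 of Tomm5. The count of lower members was 5 without LINE-1 sgRNA library 1, where 2852 of 14295 genes were lower in the whole table. Without the variance trend Tomm40 alone passed, where 2226 genes were higher and 2332 lower in the whole table. Tomm20, Tomm40 and Grpel1 were called whichever library was left out, whereas Tomm22, Tomm40l and Timm17b lost their calls without scramble library 1 and without LINE-1 sgRNA library 1 or 2, Tomm22 and Timm17b also without scramble library 2, and Tomm40l also without LINE-1 sgRNA library 3.

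**Figure D1:**
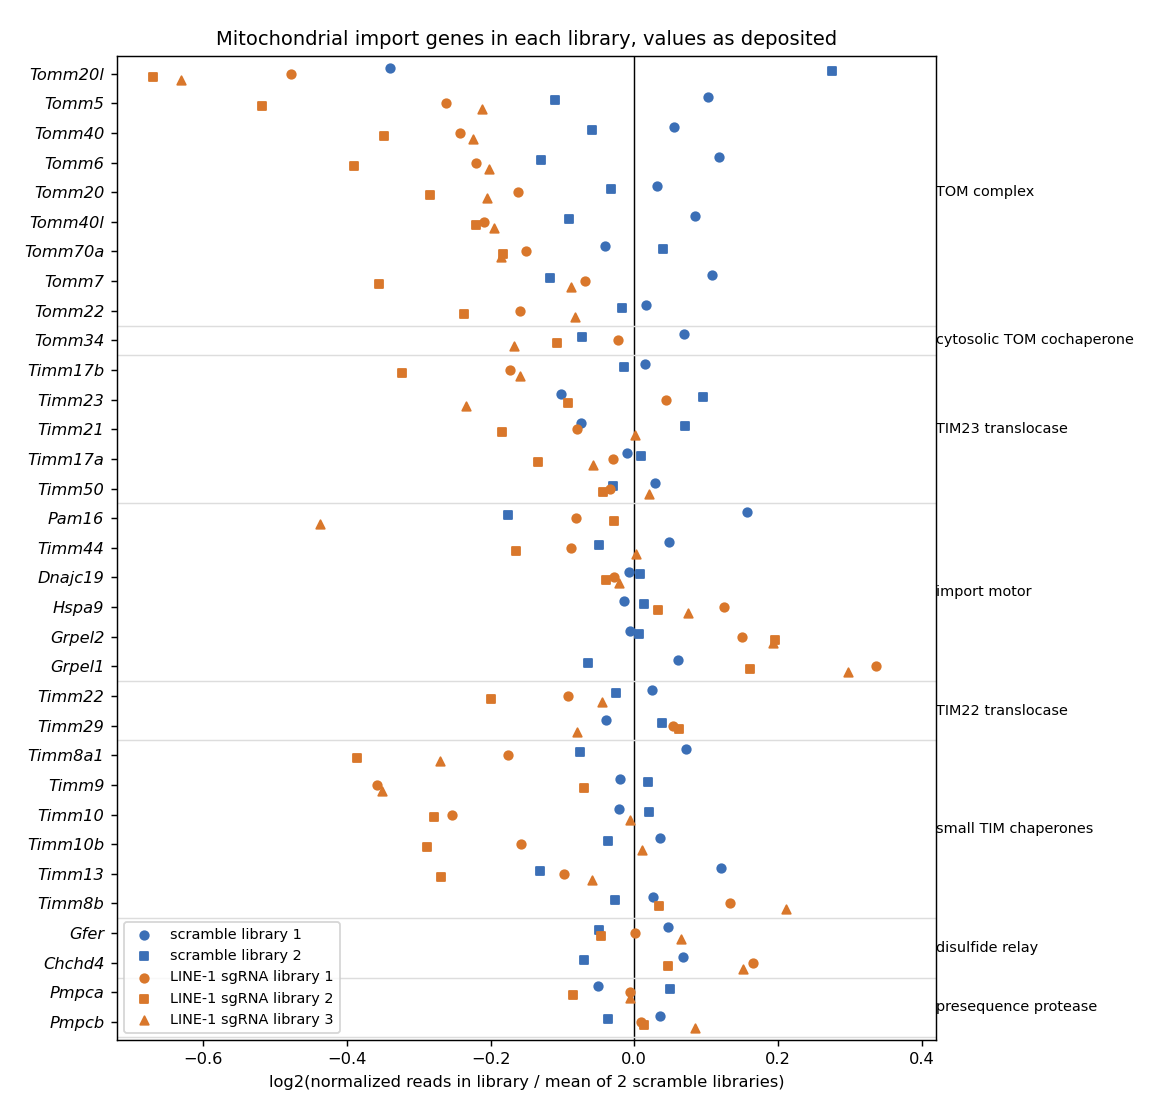
The horizontal axis gives the log2 ratio of each library's normalized reads to the mean of the 2 scramble libraries, for the 33 tested import genes in rows grouped by role. Blue marks are scramble and orange marks LINE-1 sgRNA libraries, with a different shape for each library, and the orange marks of Tomm40 all lie left of its blue marks while those of Grpel1 all lie right of them.

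Every LINE-1 sgRNA library lay below both scramble libraries in 14 of the 33 genes (background 37.2%) and above both in 4 (background 24.6%). In the other 15 the groups overlapped. With table totals these numbers were 8 below (background 24.8%), 7 above (background 32.9%) and 18 overlapping. LINE-1 sgRNA library 2 was the lowest of its group in 25 of the 33 genes, and in 21 with table totals. All 34 genes together made up 0.274 to 0.288% of a library's reads, and this share overlapped between the groups.

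All 9 genes of the outer membrane gate had a log2 change below 0, as deposited, with table totals and with TMM factors. Of all 14337 tested genes, 8501 were below 0 as deposited, 6731 with table totals and 7303 with TMM factors. As deposited 7 of the 9 gate genes were lower (background 25.4%), with table totals 2 (background 14.9%). None of them was higher under any of the 3 scalings. Tomm40, which forms the pore, had 5970 and 5516 normalized reads in the scramble libraries and 4856, 4510.4 and 4915 in the LINE-1 sgRNA libraries. All LINE-1 sgRNA libraries lay below both scramble libraries, with a log2 change of -0.27 (SE 0.057) as deposited and -0.19 with table totals. In table-total units the libraries had 5817 and 5288 against 4938, 4684 and 4994 reads, which again did not overlap. Tomm40 was the only member called in each of the 15 alternative settings.

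The receptors of the gate had smaller differences. Tomm20, which binds presequences, had 4041 and 3862 reads in scramble and 3532, 3244 and 3427 in LINE-1 sgRNA libraries (log2 change -0.22, SE 0.056; -0.13 with table totals). Tomm22, the central receptor that also organises the complex, had 4053 and 3958 against 3587, 3399.9 and 3782 (-0.16, SE 0.057). Tomm70a, the receptor for carrier proteins handed over by cytosolic chaperones, had 7179 and 7593 against 6653, 6509.8 and 6493 (-0.17, SE 0.052). The groups did not overlap in any of these genes as deposited, and Tomm70a lost its call without scramble library 2. With table totals none of these receptor genes passed, and the Tomm22 libraries overlapped.

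The small subunits Tomm5, Tomm6 and Tomm7, which stabilise the complex, were each higher in scramble library 1 than in scramble library 2. Tomm5 had 1499 and 1294 reads in scramble and 1164, 975 and 1205 in LINE-1 sgRNA libraries, a log2 change of -0.33 (SE 0.090). Tomm6 had 4586 and 3862 against 3625, 3222 and 3671 (-0.27, SE 0.073). As deposited both were lower in every LINE-1 sgRNA library, but neither passed without scramble library 1. With table totals Tomm5 was still lower in every LINE-1 sgRNA library, while the Tomm6 libraries overlapped. Tomm7 had 2219.5 and 1897 against 1963, 1609 and 1936, did not pass (-0.17, SE 0.085), and overlapped.

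Short transcripts as a whole differed in the same libraries. Among 765 tested genes whose longest coding transcript is under 1000 bases, scramble library 1 exceeded scramble library 2 by a median of 0.13 on the log2 scale, and the median change with LINE-1 sgRNA was -0.09. The 6 import genes of that length class (Timm10, Tomm5, Timm8b, Tomm20l, Pam16 and Tomm6) had medians of 0.13 and -0.22. In the class of 4000 bases and over the median difference of scramble library 1 from library 2 was -0.08. The median change with LINE-1 sgRNA was -0.07 over all genes of that class, close to that of the short genes, and -0.17 over its 5 import genes. The part of transcript length in the values of the small subunits was not tested.

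The paralogs Tomm40l and Tomm20l are scarcer per kilobase of transcript than Tomm40 and Tomm20. Tomm40l, a second form of the pore, had 1326 and 1174 reads in scramble and 1081, 1073 and 1091 in LINE-1 sgRNA libraries (-0.21, SE 0.072; -0.12 with table totals, not passed). Its exons share 3304 of 5135 bases with the overlapping gene Nr1i3, and without strand information those reads cannot be assigned. Tomm20l, a paralog of Tomm20, had 49.3 and 75.4 against 44.8, 39.2 and 40.3 reads and did not pass (-0.55, SE 0.25). Tomm34, a cytosolic cochaperone that guides precursors to the gate, ranged from 1234 to 1362 and from 1156 to 1279, with overlapping groups (-0.10, SE 0.072).

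Summed over the pore, its receptors and its small subunits (Tomm20, Tomm22, Tomm40, Tomm70a, Tomm5, Tomm6 and Tomm7), the gate had 29547 and 27982 reads in scramble and 25381, 23470.0 and 25428 in LINE-1 sgRNA libraries. This is 28764 ± 1107 (SD, n = 2) against 24759.6 ± 1117 (SD, n = 3), a difference of -13.9% as deposited and -8.87% with table totals, and the groups did not overlap under either scaling. In bulk RNA, fewer cells that express these genes and less of their RNA in each cell cannot be told apart.

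The TIM23 channel genes were close to the median of all genes, except Timm17b. Timm17b, a subunit of the channel's gate, had 881 and 864 reads in scramble and 774, 698 and 781 in LINE-1 sgRNA libraries (-0.22, SE 0.081; -0.13 with table totals, not passed). Its paralog Timm17a had 2622 and 2657 against 2586, 2406 and 2536 and did not pass (-0.07, SE 0.057). Both genes were below scramble in every LINE-1 sgRNA library as deposited, Timm17b by more. The channel protein gene Timm23 (-0.09), Timm21 (-0.09), which links the complex to the outer gate, and the receptor Timm50 (-0.02) did not pass, and their groups overlapped. Timm23 has 6 near-identical copies elsewhere in the genome, 1 of them the protein-coding gene Gm10273 (1121 aligned bases, 99.9% identical), so its level depends on how reads fitting several places were counted, which the sources used here do not give.

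Grpel1, the only member called higher as deposited, belongs to the import motor. This gene, the exchange factor that resets Hspa9 by releasing ADP, had 2435 and 2233 reads in scramble and 2946, 2608 and 2867 in LINE-1 sgRNA libraries. All LINE-1 sgRNA libraries lay above both scramble libraries, with a log2 change of 0.27 (SE 0.065) as deposited and 0.35 with table totals. Its exons share 411 bases with the gene Tada2b. Grpel2, its paralog, had 865 and 873 against 964, 996 and 993 reads, groups that did not overlap, and was just outside the threshold as deposited (0.18, SE 0.071) and higher with table totals (0.26). Hspa9, the chaperone that pulls precursors in and the most abundant import transcript, had 22446 and 22895 against 24721, 23196 and 23884.5 reads. Its LINE-1 sgRNA libraries lay above both scramble libraries by a small margin, with a change of 0.08 (SE 0.056, not passed) and 0.16 with table totals, where it was higher.

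The other motor genes did not pass. Dnajc19, a J protein that stimulates Hspa9, ranged from 4889 to 4939.5 in scramble and from 4782 to 4841 in LINE-1 sgRNA libraries (-0.03, SE 0.050; 0.05 with table totals). Timm44, which tethers Hspa9 to the channel, had a change of -0.08, and Pam16, which holds the J protein in place, one of -0.17 (SE 0.14). None of these passed under any of the 3 scalings. Of the 6 motor genes 1 was higher as deposited (background 18.2%) and 3 with table totals (background 22.9%), and none was lower. The summed motor signal, most of it Hspa9, was 33428 ± 53.9 (SD, n = 2) in scramble and 35017 ± 992 (SD, n = 3) in LINE-1 sgRNA libraries, 4.75% higher as deposited and 10.9% higher with table totals.

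**Figure D2:**
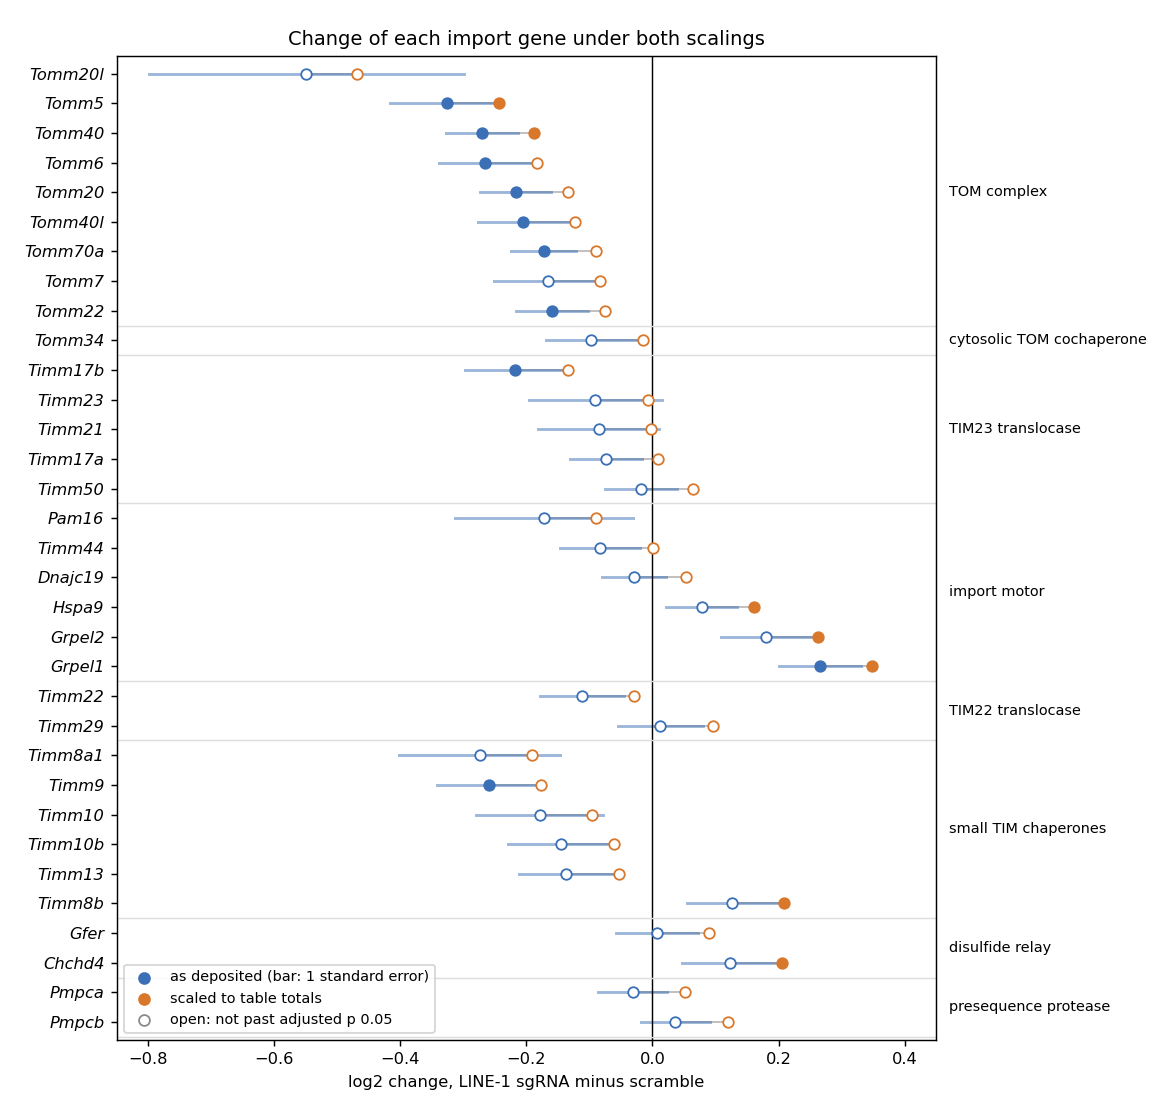
The horizontal axis gives the log2 change, LINE-1 sgRNA minus scramble, of each of the 33 tested import genes, with values as deposited in blue (bars are 1 standard error) and scaled to table totals in orange. Filled marks passed an adjusted p of 0.05 in limma and open marks did not. Tomm5 and Tomm40 are filled to the left of 0 and Grpel1 to the right of 0 in both scalings.

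The genes that route proteins to the intermembrane space and inner membrane were mixed. Of 6 tested small TIM genes 1 was lower as deposited, Timm9 (background 25.4%), and 1 was higher with table totals, Timm8b (background 22.9%). Timm9, which forms a chaperone ring with Timm10, had 1396 and 1435 reads in scramble and 1104, 1348 and 1110.4 in LINE-1 sgRNA libraries (-0.26, SE 0.083). It lost its call without scramble library 2 and without LINE-1 sgRNA library 1 or 3. Timm10 had 539.6 and 555 reads in scramble and 459, 452 and 545 with LINE-1 sgRNA, did not pass (-0.18, SE 0.10) and overlapped. LINE-1 sgRNA library 2 was the highest of its group in Timm9 and the lowest in Timm10.

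Timm8b, a partner of Timm13 in the other small chaperone ring, had 1131 and 1091 reads in scramble and 1218, 1138 and 1285 in LINE-1 sgRNA libraries. These did not overlap, and the change was 0.13 (SE 0.072, not passed) as deposited and 0.21 with table totals, where it was higher. Timm8a1, the other form of Timm8, had 273 and 246 against 229.9, 199 and 215 reads and also did not overlap, in the opposite direction (-0.27, SE 0.13, not passed). Timm13 (-0.14), Timm10b (-0.14), which anchors the ring on TIM22, and the TIM22 genes Timm22 (-0.11), the channel, and Timm29 (0.01) did not pass. Timm8a2 was too scarce to test, with 2.14 and 4.55 reads in scramble and 2.31, 11.5 and 0.875 in LINE-1 sgRNA libraries.

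In the disulfide relay Chchd4, the receptor that oxidises incoming proteins, had 1014 and 922 reads in scramble and 1085, 999.7 and 1075 in LINE-1 sgRNA libraries, with overlapping groups (0.12, SE 0.075, not passed). With table totals it was higher (0.21). Gfer, which reoxidises Chchd4, had a change of 0.01 (SE 0.065) and overlapped. The subunits of the mitochondrial processing peptidase are the substrate-binding Pmpca (-0.03, SE 0.055) and the catalytic Pmpcb (0.04, SE 0.055). They ranged from 4372 to 4686 and from 3249.7 to 3416 in scramble, and overlapped with the LINE-1 sgRNA libraries. The figures label this role presequence protease.

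Ratios between import genes inside a library do not depend on how libraries are scaled. Grpel1 stood at 0.0824 and 0.0798 of the summed gate genes in scramble and at 0.116, 0.111 and 0.113 in LINE-1 sgRNA libraries, a log2 difference of 0.48. Hspa9 stood at 3.76 and 4.15 times Tomm40 in scramble and at 5.09, 5.14 and 4.86 times in LINE-1 sgRNA libraries (0.35). Timm8b stood at 4.14 and 4.43 times Timm8a1 in scramble and at 5.30, 5.72 and 5.97 times with LINE-1 sgRNA (0.40). In all of these the LINE-1 sgRNA libraries lay above both scramble libraries.

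The Timm17b to Timm17a ratio lay below scramble in every LINE-1 sgRNA library, at 0.336 and 0.325 against 0.299, 0.290 and 0.308 (-0.14). The ratios Grpel2 to Grpel1 (-0.09), Timm9 to Timm10 (-0.08) and Pmpcb to Pmpca (0.07) overlapped between the groups. The pairs were picked after their values were seen, and a shift of a ratio does not say which of its genes moved.

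**Figure D3:**
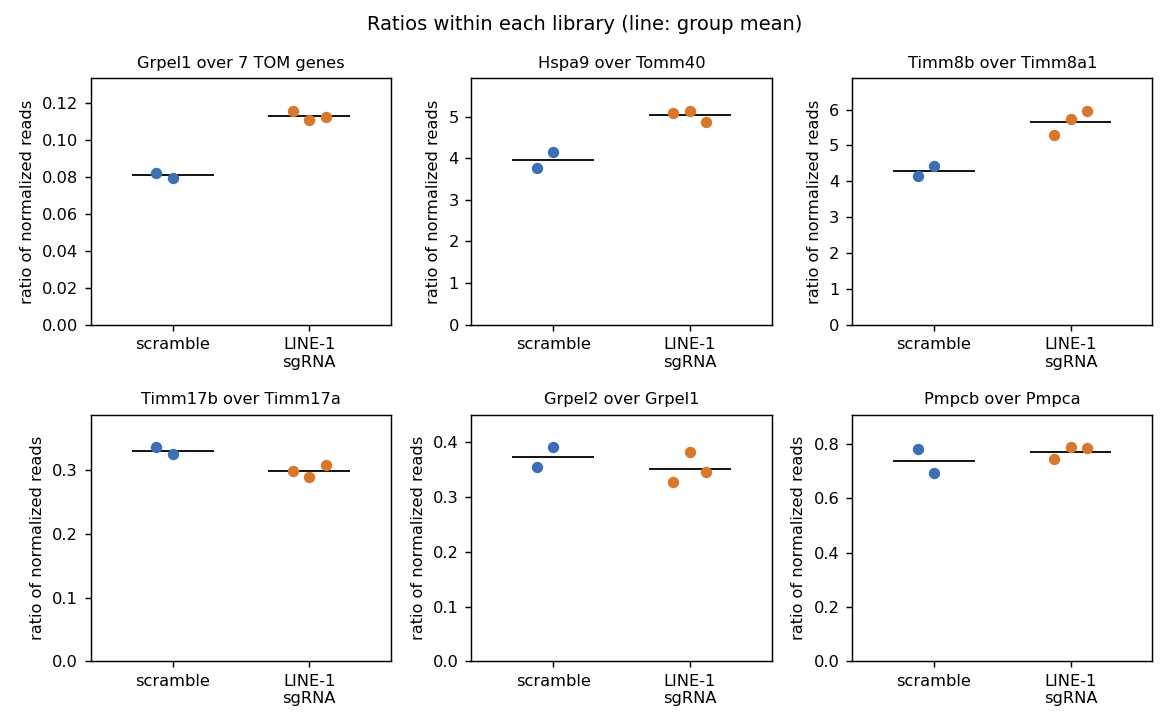
Each panel gives on the vertical axis the ratio of normalized reads of the named genes in each library, starting at 0, with blue points for the 2 scramble and orange points for the 3 LINE-1 sgRNA libraries and a line at the group mean. The first 3 ratios are higher and Timm17b over Timm17a is lower in every LINE-1 sgRNA library, and the last 2 overlap.

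Levels of the import genes differed far more from each other than between the groups. Per kilobase of the longest coding transcript, the scramble mean was 7435 normalized reads for Hspa9, 5639.6 for Tomm6, 3489 for Tomm40, 2553 for Tomm22 and 2432 for Timm13. The middle of the order held Gfer (847), Tomm20 (806), Timm10 (794) and Grpel1 (661). The lowest were Grpel2 (215), Timm8a1 (183), Tomm20l (108) and Timm8a2 (3.66). Of the 33 neighbours in this order 15 had overlapping scramble ranges, such as Tomm22 with Timm13 and Timm17b (366) with Timm17a (363), so their order is not resolved. Among the paralog pairs, Tomm40l stood at 265 per kilobase beside Tomm40, and Tomm20l was the lower of its pair. These levels take 1 transcript per gene, which the deposited counting need not have used.

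**Figure D4:**
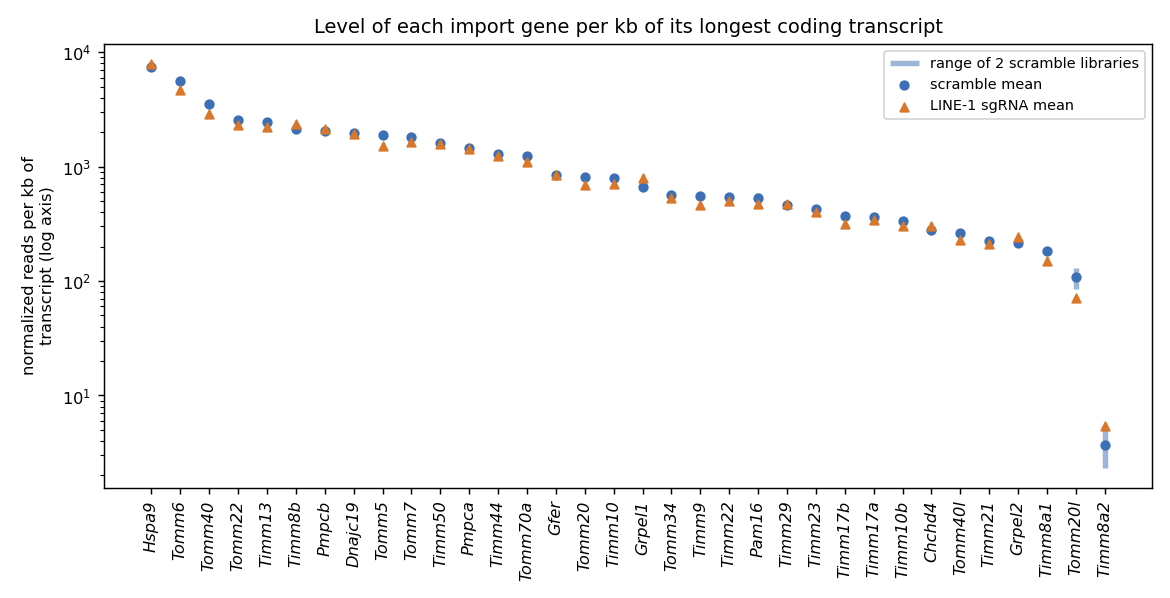
The vertical log axis gives normalized reads per kilobase of the longest coding transcript, and the horizontal axis the 34 import genes in order of their scramble mean. Blue points are scramble means with the range of the 2 libraries, and orange triangles are LINE-1 sgRNA means, which stay close to the blue points from Hspa9 at 7435 to Timm8a2 at 3.66.

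How firmly reads belong to these genes differs. All 34 have 1 position in the GENCODE annotation of GRCm38, and 15 of them overlap another gene of the table. In 13 the exons share bases, among them Pmpca with Inpp5e (874 bases), Timm10b with Arfip2 and Gm45799 (653), Pam16 with Glis2 (455) and Tomm20l with Timm9 (49). These counts leave out annotated genes that the table does not hold. Tomm6 shares 656 bases with such a gene at the same place, Gm21981, and 226 with its antisense gene Tomm6os. At least 200 bases of 12 members recur elsewhere in the transcriptome at 95% identity or more, in most cases in a processed pseudogene. Tomm20 has 4 such copies, and Gfer shares 573 bases with Dst. Tomm40 (chromosome 7, 19701313 to 19715438, minus strand) and Tomm5 (chromosome 4, 45105208 to 45108114, minus strand) overlap no other gene of the table. Outside the table, however, Tomm40 shares 258 bases with the antisense gene Gm20512 at the same place. The sources do not say whether strand was used, so reads from these bases cannot be assigned.

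Other genes of mitochondrial import and quality control were compared in 8 lists with 82 tested genes. Of these 26 were lower (background 25.4%) and 9 higher (background 18.2%), with a median log2 change of -0.12. With table totals 11 were lower (background 14.9%) and 14 higher (background 22.9%), with a median of -0.03, so the balance of directions turned with the scaling. Without LINE-1 sgRNA library 1 the lower count was 18, where 2852 of 14295 genes were lower in the whole table. The named genes that lost their call without scramble library 1 were Agk, Dnajc15, Oxa1l, Mipep, Hspe1, Nrf1 and Atf4. Mtx3 and Agk lost their calls without scramble library 2. Without LINE-1 sgRNA library 1 the same held for Agk, Oxa1l, Nrf1 and Atf4, without library 2 for Oxa1l, Hspe1 and Atf4, and without library 3 for Agk, Mipep and Nrf1. In the annotation Hspd1 overlaps Hspe1, Mtx1 overlaps Thbs3, Immp2l overlaps Lrrn3 and Atf5 overlaps Il4i1 and Nup62.

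The sorting and assembly complex of the outer membrane folds Tomm40 and other barrel proteins into the membrane. Its pore gene Samm50 had 4344 and 4076 reads in scramble and 5170.4, 4800.4 and 5211 in LINE-1 sgRNA libraries and was higher under all 3 scalings (0.27, SE 0.056). Its partners Mtx1 (-0.21, SE 0.055) and Mtx3 (-0.39, SE 0.10) were lower as deposited, Mtx3 also with table totals, and Mtx2 (-0.14) did not pass. The porin Vdac1, the channel for metabolites, did not pass (-0.07). Samm50 and Mtx3 differed in opposite directions within one complex.

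In the matrix the folding chaperone Hspd1 had 20003 and 20258 reads in scramble and 15244, 14947 and 15512 in LINE-1 sgRNA libraries, a change of -0.40 (SE 0.052) that passed under all 3 scalings. Its cofactor Hspe1 was lower as deposited (-0.18, SE 0.059) and did not pass with table totals. Hspd1 and Hspa9, the main folding and pulling chaperones, lay on opposite sides of scramble, without overlap in either. The protease Lonp1 had 6122 and 6098 against 7386, 7286 and 7488 reads and was higher under all 3 scalings (0.27, SE 0.050).

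Among genes that act beside TIM23 and TIM22, Agk, a lipid kinase and TIM22 subunit (-0.28, SE 0.099), and Dnajc15, a paralog of Dnajc19 (-0.25, SE 0.079), were lower as deposited and did not pass with table totals, and Romo1 did not pass (-0.01). Oxa1l, the inner membrane insertase (-0.18, SE 0.064), and the peptidase Mipep (-0.27, SE 0.087) were lower as deposited alone. Immp2l, a subunit of the inner membrane peptidase, had 701 and 711 reads in scramble and 386, 524 and 417 in LINE-1 sgRNA libraries and was lower under all 3 scalings (-0.69, SE 0.11), while the other subunit Immp1l did not pass (-0.03). Afg3l2, a membrane protease (-0.26, SE 0.054), Immt, the core of the cristae-organising MICOS complex (-0.24, SE 0.051), and Aifm1, which anchors Chchd4 (-0.32, SE 0.061), were lower under all 3 scalings. Cox17, a client of the disulfide relay, did not pass (0.03).

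**Figure D5:**
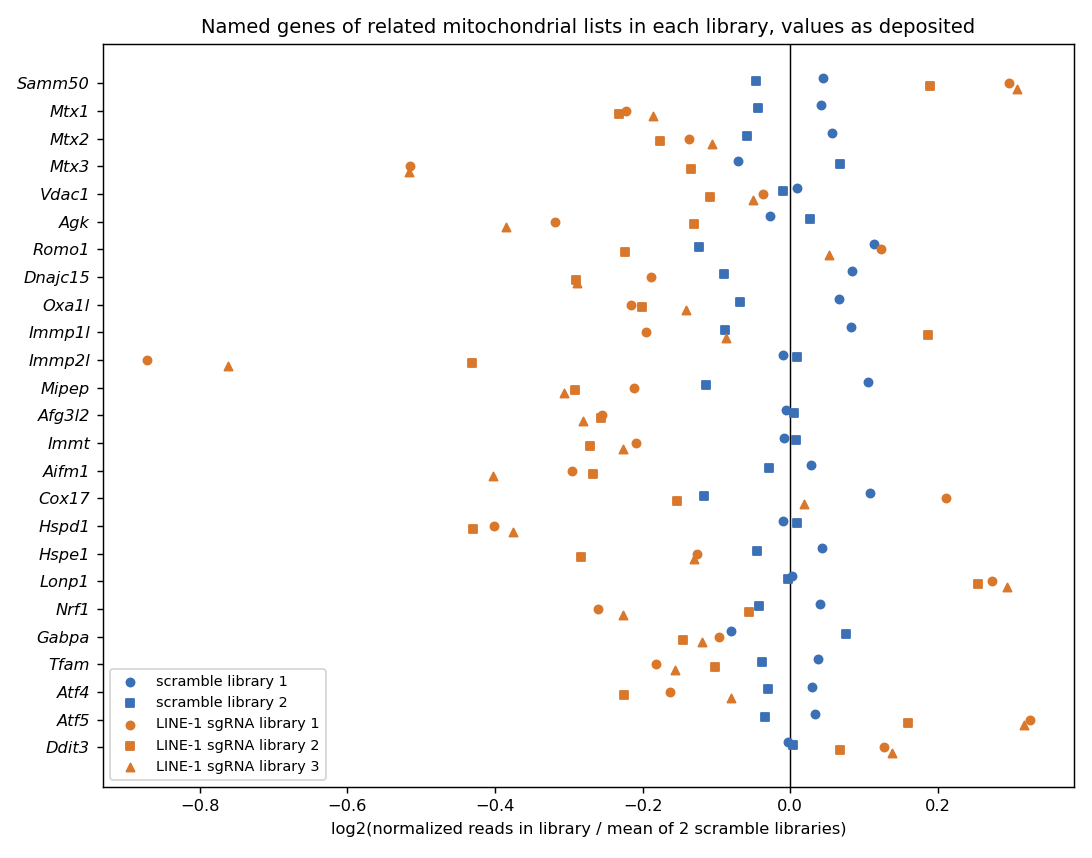
The horizontal axis gives the log2 ratio of each library's normalized reads to the mean of the 2 scramble libraries, for 25 named genes of the related lists in rows. Blue marks are scramble and orange marks LINE-1 sgRNA libraries, and the orange marks of Samm50, Lonp1 and Atf5 lie right of the blue ones while those of Hspd1, Aifm1 and Immp2l lie left of them.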

How the data were processed

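RNA was sequenced from 2 scramble and 3 LINE-1 sgRNA libraries. The sample titles give the group and the replicate number. The labels' protocols name total RNA from an RNeasy kit and the NEBNext Ultra II RNA kit. The authors deposited a normalized signal per gene, called normalized counts in the labels. DESeq2, SAMtools 1.9, bedtools 2.27.1, Bowtie2 2.2.9, STAR 2.5.3a and the builds GRCm38 and mm10 are listed in the submitters' processing notes. The sources used here do not give their roles, the counting rules or the use of strand. All values were whole multiples of 1 step per library (within 0.0001 reads), which gave 100% whole reads. Replicate libraries differed by more than sampling noise, with 3.01 to 8.66 as the chi-square per degree of freedom.

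Genes with a mean of at least 10 were fitted together in limma 3.58.1 (R 4.3.3) on log2 of the value plus 1, with a variance trend and Benjamini-Hochberg adjustment over 14337 genes (threshold 0.05); no further scaling was used. Fold changes on this scale understate those of low genes. The same fit was repeated on values scaled to table totals and with TMM factors. Count tests on the recovered reads used edgeR 4.0.16 and DESeq2 1.42.0. Other alternatives were pseudocounts of 0.5 and 8, no filter, a mean of at least 50, no variance trend, a replicate block and leaving out each library. The fit was run on simulated data with larger changes than those called among the import genes. That run says nothing about changes of their size. Copies were searched with BLAST 2.17.0. Positions and transcript lengths are from GENCODE for GRCm38 and promoters from RefSeq for GRCm38.p6.

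The members and all gene lists were chosen with earlier results of these data known. Every member is named; in the related lists 25 genes are named by symbol. Pairs for ratios were picked after their values were seen. Errors cover only variation between libraries, and each SE is drawn toward the variance trend over all tested genes. The ERV table was not used here, and the repeat table was used for the LINE-1 check.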

Additional observations from a re-analysis of the deposited data

How the results depend on the processing

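No called change turned its direction under any alternative, while the counts of calls varied. Of the genes that did not pass, 5 changed sign with table totals, Timm17a, Timm44, Timm50, Dnajc19 and Pmpca. Higher import genes numbered 1 as deposited, 5 with table totals, 2 with TMM factors, 2 with a mean of at least 50, 4 in edgeR and 3 in DESeq2, and 0 in limma without the variance trend, where 2 had an unadjusted p under 0.05. Lower import genes numbered 9 as deposited, 2 with table totals, 4 with TMM factors, 4 in edgeR, 4 in DESeq2 and 1 without the trend. When a LINE-1 sgRNA library was left out they numbered 5 to 8 (5 without library 1). In these fits 2852 to 3459 genes were lower in the whole table, of 14266 to 14304. In the whole table the higher and lower counts were 2606 and 3637 as deposited, 3280 and 2136 with table totals, 3051 and 2538 with TMM factors, 3039 and 2583 in edgeR, 2808 and 2430 in DESeq2 and 2226 and 2332 without the trend, all of 14337 genes, and 2102 and 3627 of 12117 with a mean of at least 50. In the related lists the higher count was 9, 14 with table totals and 4 without the trend, and the lower count was 26, 11 with table totals, 13 with TMM factors, 11 without the trend, 13 in edgeR, 13 in DESeq2 and 16 to 24 when a library was left out (16 without scramble library 1). Pseudocounts and the absence of a filter left the import gene counts at 1 and 9. The cause of these differences was not tested. With the replicate number as a block, 1 import gene was higher and 13 lower, 2667 and 3906 genes in the whole table, and 7 and 29 in the related lists. The labels do not say whether the numbers pair the samples. Deviations from the group means correlated at -0.008 for number 1 and 0.066 for number 2. Between scramble library 1 and LINE-1 sgRNA library 3, which share no number, they correlated at 0.073. With 2 scramble libraries the deviations of one mirror those of the other, so these values cannot settle whether samples are paired. Timm8a2, with 1 to 17 reads per library, fell below the filter on low values and was tested only in the fit without that filter.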

Other observations

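Genes that regulate mitochondrial biogenesis and the response to stalled import were compared in the same way. Atf5, a transcription factor of the mitochondrial stress response, had 5550.5 and 5297 normalized reads in scramble and 6796, 6059 and 6757 in LINE-1 sgRNA libraries and was higher as deposited, with table totals and with TMM factors (0.27, SE 0.059, limma). Atf4, which acts upstream in the same response, had 11668 and 11201 against 10215, 9780.6 and 10818 reads. It was lower as deposited (-0.16, SE 0.056), but did not pass with table totals (-0.07), without scramble library 1 or without LINE-1 sgRNA library 1 or 2. Ddit3 had 1033 and 1038 against 1131, 1085 and 1139 reads, did not pass as deposited (0.11, SE 0.069) and was higher with table totals (0.19). Of 9 tested genes of this list 1 was higher (background 18.2%) and 4 were lower (background 25.4%) as deposited, and 2 (background 22.9%) and 2 (background 14.9%) with table totals. Among 12 regulators of biogenesis 2 were higher and 3 lower as deposited, and 3 and 2 with table totals, shares near those same backgrounds. Nrf1, the factor whose letters stand in the promoters of Chchd4, Pam16, Timm13 and Tomm20, had 2308 and 2179 against 1873, 2158 and 1917 reads. It was lower as deposited (-0.18, SE 0.068), but not with table totals, without scramble library 1 or without LINE-1 sgRNA library 1 or 3. Its part in the values of those genes was not tested. Gabpa (-0.12), a subunit of the ETS factor GABP, and Tfam (-0.15), which packages mitochondrial DNA, did not pass, although every LINE-1 sgRNA library lay below both scramble libraries in each. The other regulators past the threshold, and the second GABP subunit Gabpb1, were chosen after their values were seen. Yy1 (0.18, SE 0.050) and Ppargc1b (0.45, SE 0.14) were higher and Myc (-0.39, SE 0.060) and Ppargc1a (-0.75, SE 0.19) lower, as deposited, with table totals and with TMM factors. Ppargc1a and Ppargc1b lost their calls without scramble library 2, and Ppargc1b also without LINE-1 sgRNA library 2. Gabpb1 did not pass as deposited (0.12, SE 0.068) and was higher with table totals (0.20) and with TMM factors, and lay above both scramble libraries in every LINE-1 sgRNA library.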
